A study of Rattus norvegicus with 241 samples.

Results

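Luminal mammary cells were sorted from young ACI rats on the day a 10-day course of TGFBRi ended (day 0), and their RNA was sequenced in bulk. TGFBRi is the oral TGFBR1 kinase inhibitor LY2157299 (galunisertib, printed LY22157299 in the labels), given by gavage at 75 mg/kg with 2 doses per day to virgin female rats of the inbred ACI strain from about 35 days of age, and vehicle rats were gavaged without it. The members were the bulk libraries labelled as normal ACI, luminal and day 0. They numbered 6 of the 241 samples of the series, with 3 TGFBRi rats and 3 vehicle rats. No rat in the comparison carried a transgene, a deletion, a tumor or an estradiol pellet. Luminal cells were sorted as CD24+CD29low cells of the CD31-CD45- gate, and each library came from 1 rat. Libraries of luminal cells at day 7 and day 14, of basal (CD24+CD29high) cells of the same day 0 rats, and single-cell tables of the day 0 luminal sort of 6 other ACI rats were used for comparison.

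TGFβ ligands bind a pair of receptor kinases, and the type I kinase TGFBR1 phosphorylates SMAD2 and SMAD3, which enter the nucleus with SMAD4 and switch target genes on or off. In epithelia the pathway is best known for holding cells in G1, partly through CDK inhibitors, and for raising matrix genes and its own inhibitors. In the mammary gland it restrains the growth of ducts and alveoli. The luminal layer holds hormone receptor-positive mature cells and the progenitors of the milk-producing alveolar cells.

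Levels are the deposited normalized read counts, which were divided by library size factors and not by gene length, so they compare 1 gene between libraries and not 1 gene with another. Differences are TGFBRi minus vehicle on the scale of log2(normalized counts + 1). A gene was called when its limma p, adjusted by Benjamini-Hochberg over all genes tested, was at most 0.05. The vehicle libraries held 18895823 to 21160386 reads and the TGFBRi libraries 8922897 to 18568520. TGFBRi replicates 1 and 2 stood apart: they were the shallowest, at 10192039 and 8922897 reads, and yet had 15060 and 15143 genes above 0, against 12976 in TGFBRi replicate 3 and 12096 to 13296 in the vehicle rats. After thinning to equal depth, they still had 14981 and 15143 genes above 0, against 11771 to 12648 in vehicle libraries and 12474 in TGFBRi replicate 3. The part of this split in the results was not tested, so the main counts are also given without these 2 rats.

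The defining luminal markers were high in all 6 libraries. KRT8, a keratin of simple epithelia, stood at 141189 to 162292 normalized counts in vehicle rats and 163730 to 198748 in TGFBRi rats. EPCAM, an epithelial adhesion molecule, stood at 54829 to 56538 and 41533 to 53694. The 12 basal epithelium markers summed to 3698 to 4614 normalized counts in vehicle rats and 2502 to 2598 in TGFBRi rats. The 11 fibroblast markers of the tables summed to 19144 to 32977 in vehicle rats and to 30153, 16541 and 85624 in TGFBRi replicates 1 to 3, so that replicate 3 was the highest. The 16 leukocyte markers summed to 992 to 1919 and 1023 to 2568, and PTPRC, which encodes the sorted-out CD45, lay between 0 and 25.1 in vehicle rats and between 31.4 and 103.6 in TGFBRi rats. The 12 endothelium markers summed to 585 to 1430 and 345 to 1066. In a bulk sample, fewer cells of a type and less RNA per cell cannot be told apart.

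To find which genes differed at the end of treatment, the 3 TGFBRi libraries were set against the 3 vehicle libraries in 1 model with the luminal libraries of day 7 and day 14. At day 0, 153 of 15181 genes tested were called (1.01%), of which 125 were raised (0.823%) and 28 were lowered (0.184%). The 2 sets lay at different levels. The raised genes had a median of 13.3 normalized counts over the 6 libraries, only 20 of 125 reached a mean of 50, and 44 were at 0 in every vehicle library. The lowered genes had a median of 167 normalized counts, 24 of 28 reached a mean of 50, and none was at 0 in all 3 TGFBRi libraries. TGFBRi replicate 3 was the lowest of the TGFBRi libraries for 82 of the 125 raised genes, whose calls used its values, and for 7262 of all 15181 genes. With TGFBRi replicate 3 as the only treated rat, a setting chosen after seeing the data in which the spread comes from the other groups and the lone rat is assumed to vary like them, 53 genes of 14350 were called, 11 higher and 42 lower, among them 4 of the 125 raised and 7 of the 28 lowered genes. Leaving out TGFBRi replicate 1 or 2 left 11 and 3 calls, leaving out TGFBRi replicate 3 gave 2358, and leaving out vehicle replicate 1 left 38. Without vehicle replicate 2 or 3, limma called 0 genes, with 2030 and 2057 at an unadjusted p under 0.05. edgeR on the recovered reads called 3 genes (RRM2, UPK3A and RACGAP1, all lower) and DESeq2 called 556, of which 454 were higher. The 6 day 0 libraries fitted alone gave 1669 calls, 784 higher and 885 lower, and a mean of at least 20 normalized counts left 8, of which 2 were higher.

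**Figure D1:**
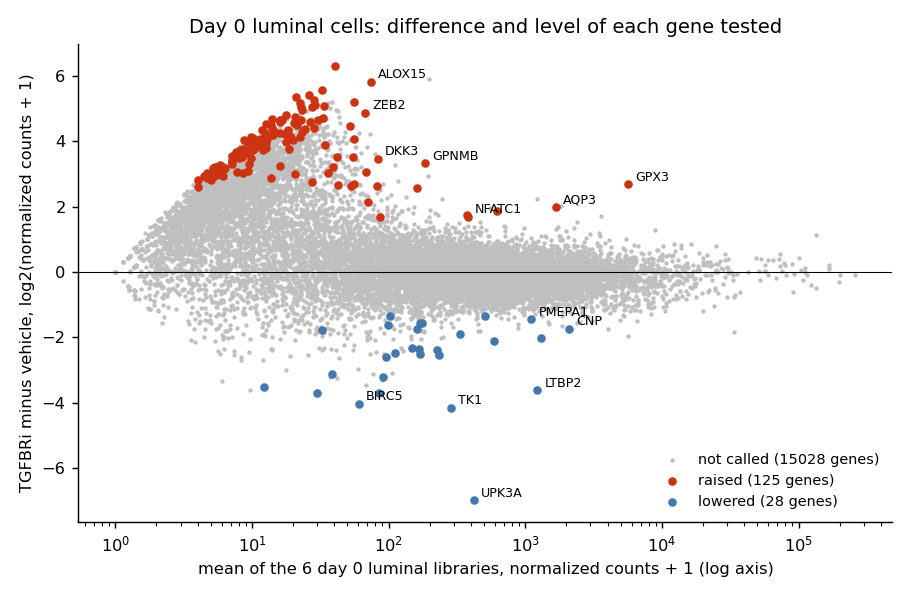
Each point is 1 of the 15181 genes tested, with its mean over the 6 day 0 luminal libraries (x, normalized counts + 1, log axis) against TGFBRi minus vehicle (y, log2). The 125 raised genes (red) gather at low levels, with a median of 13.3 normalized counts, and the 28 lowered genes (blue) at higher ones, with a median of 167.

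Of the 28 lowered genes, 10 belong to the lists of S phase and G2/M genes, which act in DNA replication and mitosis. Of the 39 S phase genes tested, 5 fell and 0 rose (MCM3, MCM5, MCM6, TK1 and RRM2). Of the 53 G2/M genes tested, 5 fell and 0 rose (CDCA8, BIRC5, RACGAP1, MYBL2 and FAM64A), where 0.184% of all genes fell and 0.823% rose. KIFC1, a minus-end mitotic kinesin, and SAPCD2, a regulator of spindle orientation, also fell and stand outside both lists. In background, replication genes are switched on before S phase through E2F sites in their promoters, and G2/M genes through CHR elements and CCAAT boxes. The promoters of 7 of the 10 were found among the RefSeq sequences of the GRCr8 build, each running from 250 bases before the annotated start to 50 after it. They were searched on both strands for E2F words (TTTCCCGC, TTTGGCGC, TTTGCCGC and TTTCGCGC), CHR words (TTTGAA and TTCGAA) and the CCAAT box (CCAAT), where words could overlap. MCM3 and MCM5, subunits of the replicative helicase, and CDCA8 (borealin) and BIRC5 (survivin), of the chromosomal passenger complex, are printed 5′ to 3′ on their own strand to set a pair of S phase promoters beside a pair of G2/M promoters. Capitals mark the words found. MCM3 lies at chr9:30733697-30733996 (minus strand), MCM5 at chr19:13488563-13488862 (plus strand), CDCA8 at chr5:142483150-142483449 (minus strand) and BIRC5 at chr10:103571896-103572195 (plus strand).
MCM3: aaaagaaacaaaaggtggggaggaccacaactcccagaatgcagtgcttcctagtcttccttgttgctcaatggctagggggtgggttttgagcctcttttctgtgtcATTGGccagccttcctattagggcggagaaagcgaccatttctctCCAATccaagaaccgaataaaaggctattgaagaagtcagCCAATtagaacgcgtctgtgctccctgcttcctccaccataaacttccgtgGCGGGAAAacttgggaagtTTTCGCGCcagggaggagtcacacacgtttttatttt
MCM5: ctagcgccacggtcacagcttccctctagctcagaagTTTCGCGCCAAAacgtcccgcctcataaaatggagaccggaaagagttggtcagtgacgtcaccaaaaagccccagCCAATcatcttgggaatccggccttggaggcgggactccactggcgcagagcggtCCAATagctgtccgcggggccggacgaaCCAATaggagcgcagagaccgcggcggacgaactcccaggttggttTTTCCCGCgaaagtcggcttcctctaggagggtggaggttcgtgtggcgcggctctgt
CDCA8: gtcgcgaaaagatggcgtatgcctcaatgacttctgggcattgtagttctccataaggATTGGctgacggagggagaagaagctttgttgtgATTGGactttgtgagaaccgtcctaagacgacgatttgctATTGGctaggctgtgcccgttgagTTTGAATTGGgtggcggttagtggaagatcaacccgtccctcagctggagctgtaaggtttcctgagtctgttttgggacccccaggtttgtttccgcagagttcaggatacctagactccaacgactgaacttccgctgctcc
BIRC5: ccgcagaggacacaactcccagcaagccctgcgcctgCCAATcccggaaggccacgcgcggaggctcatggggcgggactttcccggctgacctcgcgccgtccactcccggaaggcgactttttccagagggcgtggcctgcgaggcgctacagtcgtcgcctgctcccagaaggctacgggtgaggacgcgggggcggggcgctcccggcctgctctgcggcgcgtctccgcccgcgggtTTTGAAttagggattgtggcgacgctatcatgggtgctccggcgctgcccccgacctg

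In these windows, MCM3 held 2 E2F words and MCM5 held 3, of which a pair overlapped, and neither held a CHR word. CDCA8 held 1 CHR word 94 bases before its start, and BIRC5 held 1 CHR word 8 bases before its start, and neither held an E2F word. MCM6 held 2 overlapping E2F words, while the windows of TK1 and MYBL2 held none of the words searched. The promoters of TK1 and BIRC5 lie 26868 bases apart on chromosome 10. Over whole lists, E2F words were in 47.7% of the 44 promoters of S phase genes and CHR words in 69.2% of the 52 promoters of G2/M genes, where 2.14% and 19.7% of all 33469 RefSeq promoters of this length held them. The CCAAT box, a short and common word, was in 59.1% and 71.2% of the same promoters and in 37.5% of all.

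TK1, the thymidine kinase that salvages thymidine for DNA synthesis, stood at 353, 705 and 551 normalized counts in vehicle rats and at 69.6, 13.4 and 22.9 in TGFBRi rats, a difference of -4.16 ± 0.62 (SE, n = 3 and 3, adjusted p = 0.020 by limma). MCM3 stood at 287, 484 and 321 against 159, 78.6 and 22.9 (-2.40 ± 0.53, adjusted p = 0.045 by limma). MCM5 stood at 312, 544 and 303 against 146, 75.2 and 22.9 (-2.53 ± 0.53, adjusted p = 0.039 by limma). In these 3 genes, as in all 28 lowered genes, whose calls used the same values, every TGFBRi library lay below every vehicle library. This held for 14.1% of all genes tested. TGFBRi replicate 3, the deepest of the treated libraries, was the lowest for both helicase genes. MCM6, of the same helicase, stood at 679, 1282 and 887 against 307, 182 and 172 (-2.10 ± 0.39, adjusted p = 0.031 by limma). RRM2, the regulated subunit of ribonucleotide reductase, stood at 167, 256 and 143 against 35.5, 21.7 and 41.6 (-2.48 ± 0.35, adjusted p = 0.019 by limma). Vehicle replicate 2 was the highest library for all 5 genes.

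Of the G2/M genes, BIRC5 stood at 73.6, 159 and 104.5 normalized counts in vehicle rats and at 11.4, 1.67 and 7.64 in TGFBRi rats (-4.04 ± 0.88, adjusted p = 0.045 by limma). CDCA8, its partner in the passenger complex, stood at 197, 396 and 277 against 56.9, 48.5 and 39.04 (-2.53 ± 0.51, adjusted p = 0.037 by limma). RACGAP1, a subunit of centralspindlin that is needed for cytokinesis, stood at 172, 195 and 107.8 against 9.95, 10.0 and 12.7 (-3.71 ± 0.55, adjusted p = 0.020 by limma). The 3 treated rats were close to each other for RACGAP1 and below the lowest vehicle rat. MYBL2, a transcription factor that helps to switch on G2/M genes, stood at 79.9, 288 and 127 against 34.1, 18.4 and 18.7 (-2.60 ± 0.52, adjusted p = 0.037 by limma). FAM64A, a mitotic regulator, stood at 21.2, 69.97 and 68.8 against 4.26, 8.36 and 0 (-3.71 ± 0.83, adjusted p = 0.046 by limma).

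**Figure D2:**
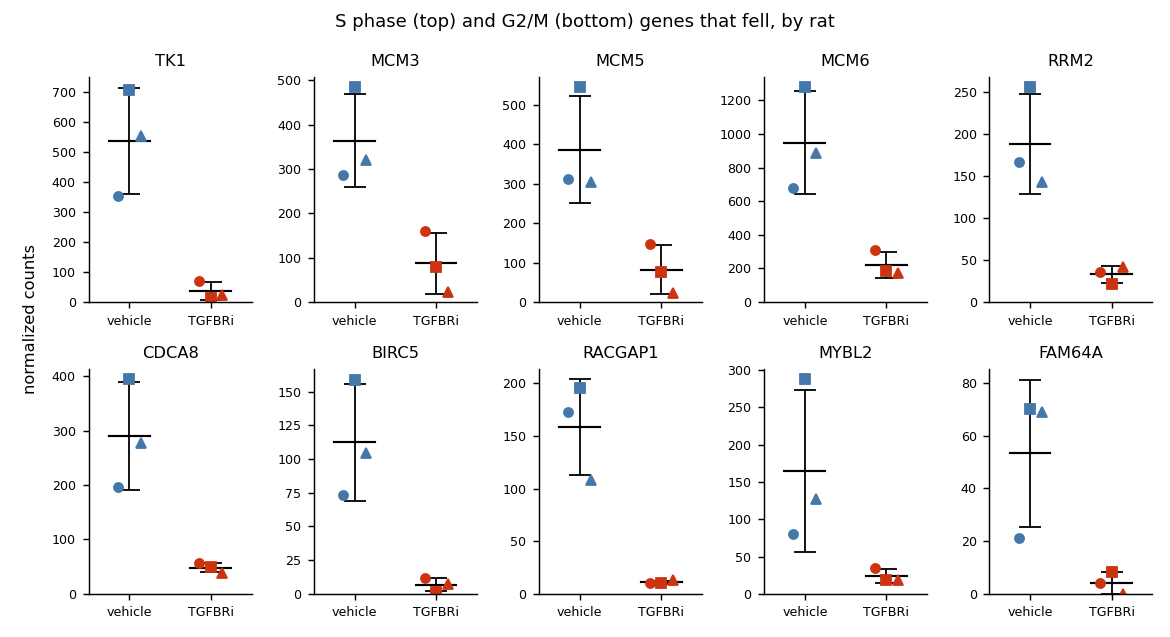
Normalized counts (y) of the 5 S phase genes (top) and 5 G2/M genes (bottom) that fell, in 3 vehicle rats (blue) and 3 TGFBRi rats (red), with circles, squares and triangles for replicates 1, 2 and 3 and bars for the mean and SD. In every panel the 3 TGFBRi rats lie below the 3 vehicle rats, as they do for all 28 lowered genes. The calls used the same values, and 14.1% of all genes tested lie so. RACGAP1 lies at 9.95 to 12.7 against 107.8 to 195.

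Over all tested members, called ones included, all 3 TGFBRi libraries lay below all 3 vehicle libraries for 25 of 39 S phase genes and 31 of 53 G2/M genes, where 14.1% of all genes tested did. The reverse held for 2 of 39 and 0 of 53, where 18% of all genes did. The median difference was -0.70 over the S phase genes and -0.96 over the G2/M genes, against 0.21 over all genes tested. Medians and shares over all genes were not matched for level. Of the 15181 genes, 1490 were at 0 in every vehicle library and 57 in every TGFBRi library. With a mean of at least 20 normalized counts, the median over 10385 genes was -0.008. Among members that were not called, 20 of 34 S phase and 26 of 48 G2/M genes lay below without overlap, with medians of -0.56 and -0.92. In TGFBRi replicates 1, 2 and 3 taken singly, the median lay at -0.49, -0.80 and -1.14 for S phase genes and at -0.68, -0.64 and -1.97 for G2/M genes. Replicate 3 had the lowest medians of both lists. Among members that missed the threshold, CDK1, the kinase that drives mitosis, stood at 61.9, 183 and 160.0 against 18.5, 26.7 and 4.24 (adjusted p = 0.089 by limma). CCNA2 (cyclin A2) stood at 106.5, 151 and 126 against 28.4, 41.8 and 20.4 (adjusted p = 0.061 by limma). MKI67 and TOP2A are proliferation markers in wide use. MKI67 ran from 122 to 199.8 in vehicle rats and from 48.4 to 112 in TGFBRi rats without overlap (adjusted p = 0.43 by limma), and TOP2A ran from 132 to 202 and from 34.8 to 162, with overlap.

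Upstream of these genes, none of the 22 CDK inhibitor and G1 genes tested was called, where 1.01% of all genes were. The median difference over these 22 genes was -0.02. CDKN1A (p21), an inhibitor that TGFβ can raise, ran from 585 to 1069 normalized counts in vehicle rats and from 439 to 889 in TGFBRi rats. CDKN1B (p27) ran from 211 to 284 and from 186 to 235. The groups overlapped for both. E2F1, an activator of S phase genes, stood at 111, 225 and 119 against 66.8, 28.4 and 55.2 (-1.59 ± 0.38, adjusted p = 0.058 by limma), without overlap. SHMT1, DCTD and GGH, called genes that belong to none of the lists, were named after their values were seen. SHMT1, which loads folate with a carbon unit from serine, stood at 624, 690.3 and 856 against 254, 289 and 307. DCTD, which makes the precursor of thymidylate, stood at 197, 275 and 279 against 134, 70.2 and 61.96. GGH, which trims the glutamate tail of folates, stood at 1821, 2257 and 2208 against 638, 558 and 380.2.

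In the TGFβ pathway, 1 of 25 genes fell in the list of ligands, receptors and SMADs, and it was LTBP2, which the list also holds and which is none of these. Of 8 feedback genes 1 fell (PMEPA1), and of 26 target genes 1 rose (ZEB2), where 0.184% of all genes fell and 0.823% rose. LTBP2, a matrix protein related to the latent TGFβ binding proteins, stood at 2579.6, 2363 and 1796 normalized counts in vehicle rats and at 311, 127 and 146 in TGFBRi rats (-3.62 ± 0.59, adjusted p = 0.027 by limma). PMEPA1, a TGFβ-induced gene whose product keeps SMADs from the receptor, stood at 1797, 1549.7 and 1491 against 436, 739 and 625 (-1.45 ± 0.32, adjusted p = 0.045 by limma). For both genes the highest TGFBRi rat lay well below the lowest vehicle rat. LDLRAD4, a close relative of PMEPA1 with the same kind of action, stood at 491, 292 and 389.6 against 173, 144 and 178 (-1.21 ± 0.31, adjusted p = 0.066 by limma). CTGF, a matricellular target gene, stood at 387, 265 and 418 against 117, 80.2 and 179.9 (-1.55 ± 0.37, adjusted p = 0.058 by limma). The groups did not overlap for either gene, though both missed the threshold.

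The levels of SMAD7, ID1 and TGFBR1 overlapped between the groups. SMAD7, the inhibitory SMAD, stood at 1925, 1329 and 1689 in vehicle rats and at 1417, 2664 and 1557 in TGFBRi rats. ID1, a repressor of differentiation that answers mainly to BMPs, ran from 2132 to 3409.6 and from 3306 to 4843. TGFBR1 itself, the target of the drug, ran from 869 to 1683 and from 1438 to 2325, with overlap. Its transcript is no check of a kinase inhibitor, which acts on the protein. The median over the 26 target genes was 0.19 against 0.21 over all genes, but it lay at 0.99 in TGFBRi replicate 3, where the fibroblast markers were highest, and at 0.03 and -0.22 in replicates 1 and 2. ZEB2, a repressor known for its part in epithelial-mesenchymal transition, stood at 9.40, 0 and 6.63 in vehicle rats and at 122, 162 and 95.9 in TGFBRi rats (4.86 ± 0.94, adjusted p = 0.037 by limma). In the basal cells of the same rats ZEB2 stood at 335 to 2319, above every luminal library of day 0. The part of basal cells in the ZEB2 difference was not tested.

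Besides these, UPK3A had the largest difference of any gene called. It encodes a uroplakin, one of the membrane plaque proteins best known from the bladder lining, and stood at 663, 751 and 1072 normalized counts in vehicle rats and at 17.1, 13.4 and 0 in TGFBRi rats (-6.99 ± 0.92, adjusted p = 0.017 by limma). It kept its call in 14 of the 16 alternative fits, and lost it without vehicle replicate 2 or 3. The other 3 uroplakins tested were not called. CLDN9, a claudin of tight junctions, stood at 153, 186 and 141 against 19.9, 38.4 and 5.09 (-3.22 ± 0.70, adjusted p = 0.045 by limma). CNP, a phosphodiesterase abundant in myelin, stood at 3227, 2967 and 3329 against 1033, 667 and 1218 (-1.75 ± 0.38, adjusted p = 0.045 by limma). The lowered genes DNAAF3, PDZRN3, TTPA, PLK5, IFI47, LDHD and GSDMD had differences from -3.53 to -1.34.

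Of the 20 raised genes with a mean of at least 50, a few reached levels at which their counts are well supported. GPX3, a secreted glutathione peroxidase, stood at 1338, 905 and 1631 normalized counts in vehicle rats and at 3283, 9407 and 17073 in TGFBRi rats (2.69 ± 0.54, adjusted p = 0.037 by limma). AQP3, a channel for water and glycerol, stood at 526, 564 and 725 against 2683, 1137 and 4361 (1.98 ± 0.42, adjusted p = 0.040 by limma). RASSF6, a RAS-association domain protein of the Hippo network, stood at 256, 225 and 289 against 574, 1051 and 1322 (1.86 ± 0.32, adjusted p = 0.031 by limma). TGFBRi replicate 3 was the highest library for these 3 genes. AQP3, GPX3, RASSF6 and GPNMB were the 4 raised genes also called with that rat as the only treated one, which is no replicated test, and it had the highest summed fibroblast markers, 85624 normalized counts. NFATC1, a calcineurin-regulated transcription factor, stood at 170.0, 177 and 182 against 421, 709 and 620 (1.69 ± 0.33, adjusted p = 0.037 by limma). GPC3, a glypican of the cell surface, stood at 157, 162 and 169.9 against 348, 558 and 852 (1.75 ± 0.40, adjusted p = 0.048 by limma). The 3 vehicle rats lay close together for both genes. AQP3, RASSF6, NFATC1 and GPC3 were chosen for their counts after their values were seen.

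DKK3, a secreted protein of the Dickkopf family, stood at 21.9, 9.48 and 8.29 normalized counts in vehicle rats and at 183, 81.9 and 190.1 in TGFBRi rats (3.45 ± 0.57, adjusted p = 0.027 by limma). It was the 1 called gene of the 36 tested in the list of Wnt and Notch genes, where 0.823% of all genes rose. The list does not hold WNT8B, a Wnt ligand, or SFRP2, a secreted Wnt antagonist, which were looked up after their values were seen and also rose. WNT8B was at 0 in every vehicle library and at 7.11, 10.03 and 5.09 in TGFBRi rats, and SFRP2 rose by 3.24. In the basal cells of the same rats DKK3 stood at 4930 to 9421, above every luminal library. The summed basal markers of the luminal libraries lay at 2502 to 2598 in TGFBRi and 3698 to 4614 in vehicle rats, and the part of basal cells in the DKK3 difference was not tested. GPNMB, a glycoprotein of lysosomes and melanosomes, stood at 22.7, 21.9 and 27.4 against 117, 177 and 733 (3.32 ± 0.69, adjusted p = 0.038 by limma). DDR2, a receptor for fibrillar collagen, stood at 15.7, 18.95 and 6.63 against 121, 66.9 and 178. LPO, the lactoperoxidase of milk, stood at 13.3, 10.9 and 0 against 71.1, 65.2 and 168 (4.07 ± 0.85, adjusted p = 0.039 by limma). ALOX15, PCSK5, DRAM1 and MYOM1 differed by 5.81, 5.20, 4.46 and 3.503, from vehicle levels of 0 to 21.2. CLIC2, LRRN4CL, BICC1, FAM102B, ZFP775 and MUM1L1 differed by 1.69 to 2.68. GPNMB, DRAM1 and FAM102B had more normalized counts in every basal than in every luminal library of day 0. The part of basal cells in these 3 differences was not tested. GPX3, GPNMB and DDR2 were highest in TGFBRi replicate 3, as were the summed fibroblast markers, whose part in these differences was not tested. Of the markers of other cell types, none of 11 fibroblast, 12 endothelium, 16 leukocyte and 12 basal epithelium genes was called. None of the remaining lists had a member called lower. Raised were 1 of 11 muscle genes (MYH4), 1 of 6 red blood cell genes (ALAS2) and 1 of 9 adipocyte genes (RETN). So were 2 of 16 mast cell and neutrophil genes (HDC and FCER1A), where 0.823% of all genes were raised. These 5 stood at 3.40 to 97.6 normalized counts in TGFBRi rats and 0 to 0.783 in vehicle rats. The summed muscle markers ran from 173 to 393 in vehicle rats and from 405 to 2084 in TGFBRi rats, those of red blood cells from 0 to 10.8 and from 18.5 to 388, and those of adipocytes from 899 to 1595 and from 685 to 1729. The summed mast cell and neutrophil markers went the other way, from 2974 to 4431 in vehicle rats and from 1031 to 2059 in TGFBRi rats, and most of that sum was KIT, which luminal progenitors also express.

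Markers of the luminal lineages were set beside the share of all genes called, 1.01%. None of the 17 hormone receptor and mature luminal genes tested was called, with a median of 0.05. ESR1, the estrogen receptor, ran from 244 to 421 normalized counts in vehicle rats and from 219 to 476 in TGFBRi rats. PRLR, the prolactin receptor, ran from 1397 to 2045 and from 1457 to 2004. PGR, the progesterone receptor, ran from 438 to 760.2 and from 301 to 519.8 (-0.74 ± 0.47, adjusted p = 0.43 by limma). The groups overlapped for all 3 receptors. CITED1, a transcriptional cofactor of mature luminal cells, stood at 5457, 7373 and 5745 against 2365, 1882 and 1406 without overlap (-1.74 ± 0.89, adjusted p = 0.30 by limma).

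Of the 19 luminal progenitor and alveolar genes tested, LPO rose and none fell, where 0.823% and 0.184% of all genes did, and the median was 0.11. The list was divided, with 10 genes higher and 9 lower. The groups did not overlap for 4 genes that were higher (WAP, LTF, LPO and MUC1) and 5 that were lower (KIT, ALDH1A3, CD14, LALBA and OLAH), where 18% and 14.1% of all genes were so. WAP, a whey protein of milk, stood at 1057, 668 and 1188 normalized counts in vehicle rats and at 2303, 1788 and 3457 in TGFBRi rats (1.36 ± 1.01, adjusted p = 0.52 by limma). KIT, a receptor kinase of luminal progenitors, stood at 4358, 3399.6 and 2892 against 1065, 816 and 1898 (-1.57 ± 0.99, adjusted p = 0.43 by limma). OLAH, the thioesterase that sets the chain length of milk fat, stood at 45644, 52313 and 58684 against 20188, 10871 and 13613 (-1.85 ± 0.48, adjusted p = 0.073 by limma). CD14, a co-receptor for lipopolysaccharide, stood at 13349, 9324 and 12416 against 5009, 4254 and 7772 (-1.07 ± 0.37, adjusted p = 0.14 by limma). ELF5, the alveolar regulator, ran from 245 to 761 and from 199 to 469, and CSN2 (β-casein) from 721 to 1146 and from 838 to 1650.1. Over the 15 luminal keratin and junction genes the median was -0.11 and 0 were called, where 1.01% of all genes were.

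Genes for cytosolic ribosomal proteins and for the respiratory chain were lower in the treated rats across whole lists, though 0 of either were called by limma and 0 had an unadjusted p under 0.05. All 43 ribosomal protein genes tested had a negative difference, with a median of -1.03, and for 42 of them all 3 TGFBRi libraries lay below all 3 vehicle libraries, where 14.1% of all genes tested did. Their levels summed to 317442, 325018 and 398947 normalized counts in vehicle rats and to 184107, 184960 and 155879 in TGFBRi rats. RPL3 stood at 35056, 36435 and 41737 against 23281, 21600.1 and 20868, and RPLP0 at 30369, 29996 and 37463 against 16744, 16452 and 14400.1. The exception was RPS6, at 0.829 to 7.05 in all libraries. All 35 respiratory chain genes tested also had a negative difference, with a median of -0.61, and 31 of the 35 lay below without overlap, against the same 14.1%. ATP5B, the catalytic subunit of ATP synthase, stood at 26484, 32646 and 29052 against 20956, 20000.5 and 18658.

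**Figure D3:**
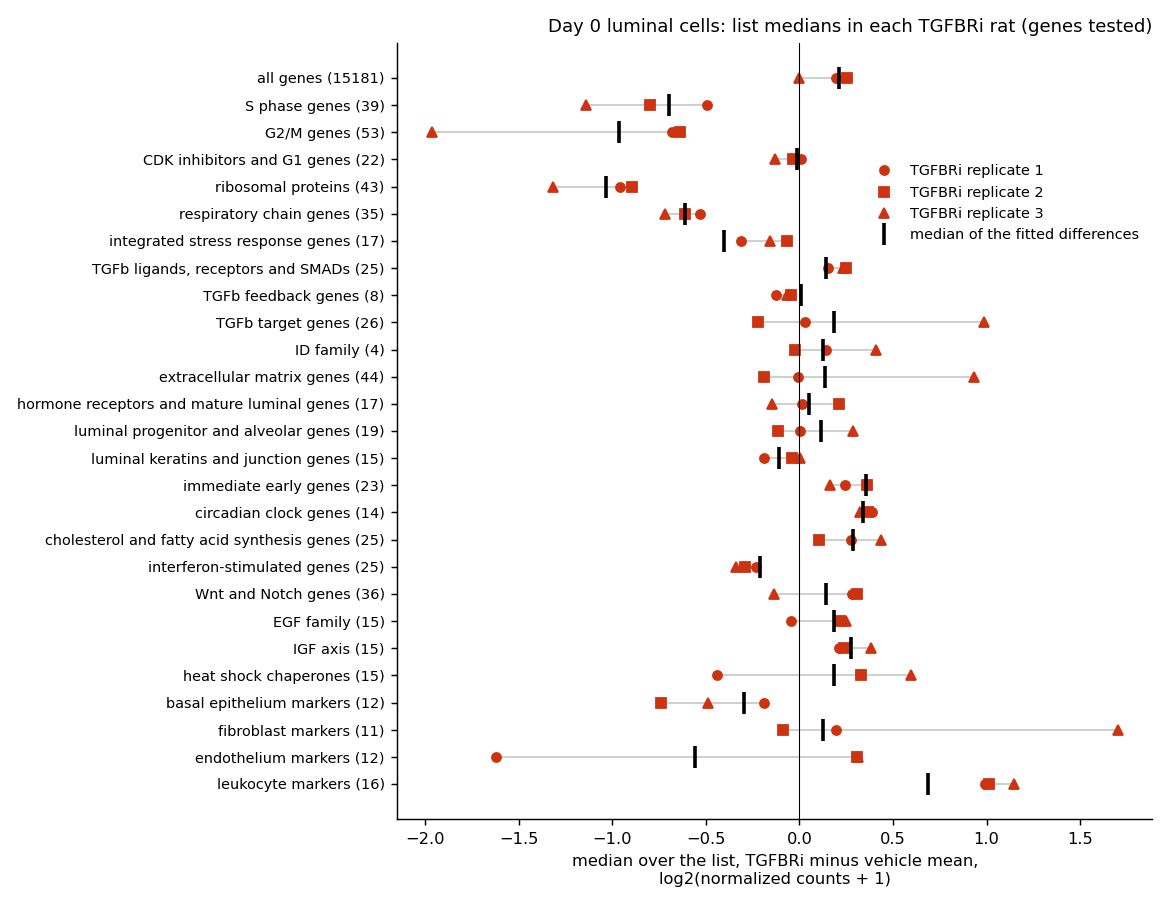
Medians of TGFBRi minus the vehicle mean (x, log2) over the tested genes of each list (y, number in brackets) in TGFBRi replicates 1 (circles), 2 (squares) and 3 (triangles), with the median of the fitted differences as a bar. All 3 rats lie below 0 for S phase, G2/M, ribosomal protein and respiratory chain genes. The same holds for integrated stress response, interferon-stimulated and TGFβ feedback genes and for basal epithelium markers. Replicate 3 lies apart at 1.70 for fibroblast markers.

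The lists of other pathways each held 1 call or none, where 1.01% of all genes tested were called. Of 44 genes tested in the list of extracellular matrix genes, 1 rose and none fell, where 0.823% and 0.184% of all genes did. It was ADAMTS5, an aggrecan-cleaving protease, which rose from 2.35, 2.19 and 0 to 34.1, 41.8 and 52.6 normalized counts. Matrix genes outside that list were also called. LTBP2 fell, as given above, and COL7A1, the collagen of anchoring fibrils, and MATN4, a matrilin, both looked up after their values were seen, rose by 3.52 and 2.65. COL7A1 stood at 511 to 2535 in the basal libraries of day 0, above every luminal library of that day. Of 25 cholesterol and fatty acid synthesis genes, SCD, the stearoyl-CoA desaturase, rose from 6.27, 0 and 0 to 22.7, 46.8 and 101.003, and the median was 0.29. The 23 immediate early genes had 0 calls and a median of 0.35, and the 14 circadian clock genes 0 calls and a median of 0.34. The 17 integrated stress response genes had 0 calls and a median of -0.40, and the 25 interferon-stimulated genes 0 calls and a median of -0.21. Without overlap, 9 immediate early genes were higher and 0 lower, and 5 clock genes were higher and 1 lower. For stress response genes these counts were 0 and 5, and for interferon-stimulated genes 1 and 8, where 18% and 14.1% of all genes were so. The 15 EGF family genes, 15 IGF axis genes, 4 ID genes and 15 heat shock chaperones had 0 calls, with medians of 0.19, 0.28, 0.13 and 0.18, all near the median over all genes.

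The same rats also gave basal cells, so each effect was set beside that in the other epithelial layer in a model of all 36 basal and luminal libraries of young ACI rats. The difference between the luminal and the basal effect was called for 24 of 15824 genes (0.152%), and for 171 when each rat was kept as a block. Without TGFBRi replicate 2 the count was 5, and without vehicle replicates 1, 2 and 3 it was 8, 2 and 6. None of the 10 genes with a lower luminal effect kept its call in any of these 4 fits. In both fits UPK3A differed: the luminal effect was -6.99, while basal cells, at 0 to 10.4 normalized counts in vehicle and 2.03 to 54.3 in TGFBRi rats, had 1.95. CNP also fell in luminal cells, and its difference in basal cells was 0.40. DKK3 rose in luminal cells and differed by -0.52 in basal cells. SFRP2 rose in luminal cells from 0 to 3.32 to 9.34 to 41.2 normalized counts and fell in basal cells (-2.19, adjusted p = 0.028 by limma). ZFP57 and OPCML rose in luminal cells, by 3.03 and 4.04, and differed by 0.14 and -1.26 in basal cells. DKK3, SFRP2, OPCML and ZFP57 had more normalized counts in every basal than in every luminal library of day 0. Of the 28 genes lowered in luminal cells, 9 were also called lower in basal cells, where 2.33% of all genes were, and 0 were called higher. These 9 included TK1, LTBP2, PMEPA1, MYBL2 and BIRC5, whose basal differences were -5.08, -4.02, -1.73, -2.39 and -3.33. The basal median was -0.44 for S phase, -0.95 for G2/M, -1.38 for ribosomal protein and -1.38 for respiratory chain genes, against 0.30 over all genes. Lower in basal cells were 27 of 39, 45 of 53, 43 of 43 and 35 of 35 of them, where 6070 of all 15824 genes were. Called lower there were 4, 4, 0 and 5, where 2.33% of all genes were. Of the 125 raised genes, 43 were called higher in basal cells, where 8.75% of all genes were, and 1 was called lower. The basal libraries of TGFBRi replicates 1 and 2 were also the shallowest of the day, and their part in the shared rises was not tested.

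To see how long the differences lasted, the day 0 effect was set against those at days 7 and 14 in luminal cells of other rats. The difference between day 0 and day 7 was called by limma for 0 of 15181 genes (0%), with 1118 at an unadjusted p under 0.05, and by edgeR for 0 and DESeq2 for 64. Between day 0 and day 14 it was called for 1 gene (0.00659%), SSPO, with 1274 at an unadjusted p under 0.05, and by edgeR for 0 and DESeq2 for 52. Without TGFBRi replicate 3, limma called 136 and 247 genes for these differences. The values of the members at the later days are therefore given side by side. UPK3A stood at 126 to 468 normalized counts in vehicle rats and 305 to 905 in TGFBRi rats at day 7, and at 79.97 to 344 and 148 to 771 at day 14, with overlap on both days. PMEPA1 stood at 976 to 2224 and 2247 to 3529 at day 7 and at 2157 to 3054 and 3635 to 3928 at day 14, so the treated rats were the higher ones on both later days. LTBP2 stood at 80.9 to 570.4 and 320.1 to 927 at day 7 and at 428 to 727 and 94.02 to 178 at day 14. TK1 stood at 1409 to 2642 and 703 to 1566 at day 7 and at 203 to 721 and 226 to 973 at day 14. The median difference at day 7 was -1.03 for S phase and -1.13 for G2/M genes, and at day 14 it was 0.26 and -0.16. For ribosomal protein genes it was -0.52 at day 7 and 0.63 at day 14.

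**Figure D4:**
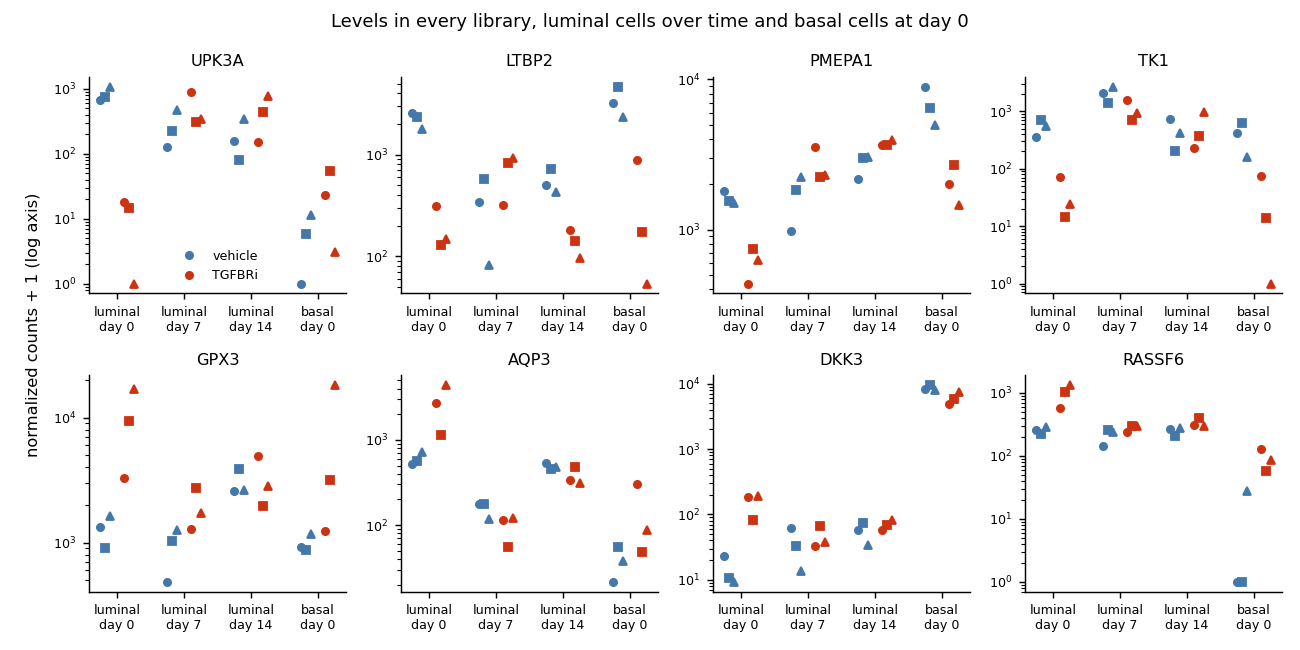
Normalized counts + 1 (y, log axis) of 8 called genes in every library of luminal cells at days 0, 7 and 14 and of basal cells at day 0 (x), with vehicle rats in blue, TGFBRi rats in red and 1 symbol per replicate number. UPK3A and PMEPA1 are separated downward at day 0 and not at days 7 or 14, and DKK3 is far higher in basal than in luminal cells.

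The luminal sort of 6 other ACI rats at day 0 was deposited as single-cell counts, 877 to 1552 cells per rat, which were summed per rat and tested by edgeR. Of 13808 genes tested, 9.27% were called higher and 7.37% lower in the 3 TGFBRi rats. The 2298 calls fell to 420 without vehicle replicate 1 and to 1311 and 1175 without TGFBRi replicates 1 and 2. Of the 28 genes lowered in bulk, 26 were tested here, 11 were lower, 2 were called lower (CLDN9 and IFI47) and 0 were called higher. CLDN9 stood at 2.76, 2.89 and 2.97 CPM, counts scaled to a fixed library total, in vehicle rats and at 1.33, 1.28 and 1.01 in TGFBRi rats (-1.23, adjusted p = 0.013 by edgeR). UPK3A stood at 23.7, 14.1 and 10.1 CPM against 40.3, 32.4 and 11.1 (0.81, adjusted p = 0.35 by edgeR), with overlap. PMEPA1 stood at 126, 116 and 119.8 CPM against 154, 113 and 137 (0.16, adjusted p = 0.38 by edgeR). LTBP2 stood at 19.5, 9.54 and 18.8 CPM against 12.1, 8.53 and 8.46 (-0.73, adjusted p = 0.11 by edgeR). Of the 125 raised genes, 36 were tested, 19 were higher, 0 were called higher and 1 was called lower (RASSF6). RASSF6 stood at 20.7, 24.4 and 20.0 CPM against 15.2, 15.6 and 17.4 (-0.43, adjusted p = 0.047 by edgeR). GPNMB stood at 0.0502, 0 and 0 CPM against 0.178, 0.498 and 0.202 (adjusted p = 0.0505 by edgeR).

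The cell cycle, ribosomal and respiratory lists also lay elsewhere in these tables. Over genes measured in both, the S phase median was -0.70 in bulk and 0.07 in single cells (39 genes), and the G2/M median was -0.96 and 0.09 (50 genes). Of the 45 S phase and 57 G2/M genes tested in single cells, 1 and 4 were called higher and 3 and 1 lower. The shares over all 13808 genes were 9.27% higher and 7.37% lower. The ribosomal protein median was -1.03 in bulk and 0.52 in single cells (38 genes), and 37 of these 38 genes were higher in single cells where 0 were in bulk. Of 39 ribosomal protein genes tested in single cells, 21 were called higher and 0 lower, against the same 9.27% and 7.37%. The respiratory chain median was -0.63 in bulk and 0.37 in single cells (32 genes). Of 36 respiratory chain genes tested in single cells, 19 were called higher and 1 lower, against the same shares. Ribosomal protein genes summed to 94630 to 98595 CPM in vehicle rats and to 121153 to 144658 in TGFBRi rats. In the same single cells, 10 fibroblast and 7 endothelium markers had medians of 3.84 and 4.23, with 0 called. The fibroblast markers summed to 99.8 to 163 CPM in vehicle rats and to 159, 443 and 118 in TGFBRi replicates 1 to 3. Sums of the endothelium markers ran from 1.62 to 3.23 in vehicle rats and were 23.8, 1.99 and 3.22 in TGFBRi replicates 1 to 3. A different treated rat was thus the highest for each list. The part of such cells in the list differences was not tested. The bulk libraries and the single cells came from different rats, protocols and cell filters, which cannot be told apart here.

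**Figure D5:**
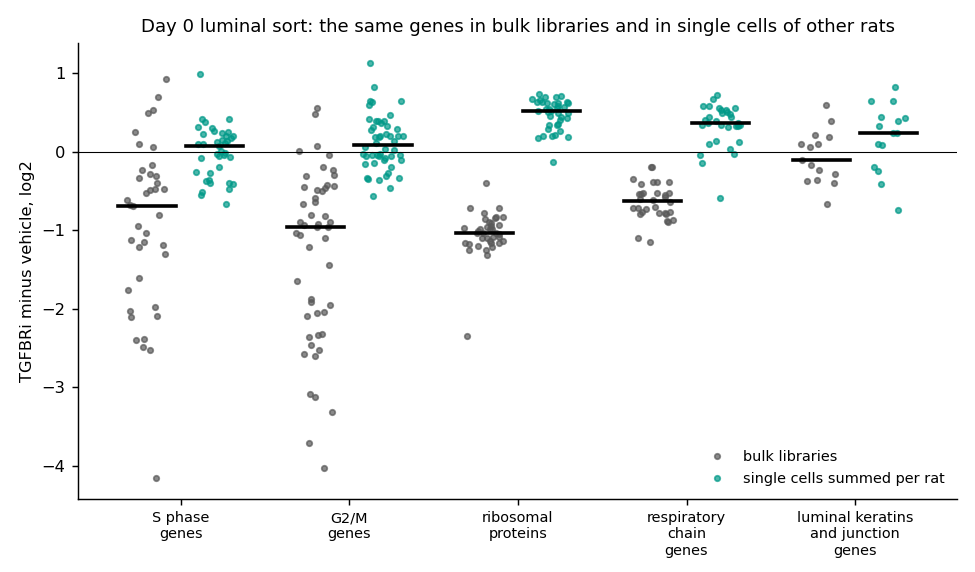
TGFBRi minus vehicle (y, log2) of the genes of 5 lists (x) measured in both data sets, with bulk libraries in grey, single cells summed per rat in green, 1 point per gene and bars for medians. The ribosomal protein genes lie at a median of -1.03 in bulk and 0.52 in single cells.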

How the data were processed

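Per the labels and the study's methods, total RNA of sorted cells was amplified with a low-input SMARTer kit and sequenced as single-end reads. The authors aligned the reads to rn6 with STAR 2.5.1b, counted them per refGene gene with HTSeq without strand, and divided the counts by DESeq2 1.30.1 size factors, and deposited the result, a signal in normalized counts. All 483768 values above 0 were whole reads (100%, tolerance 0.001) once divided by the value of 1 read, which gave the depths. The deposited single-cell counts are UMIs per gene and cell, which the authors made with Cell Ranger and filtered by genes per cell, mitochondrial share and cell type. The 6882 cells of the 6 tables, which had 8 barcodes shared between any 2 tables, were summed per rat as they stood, and no doublet caller was run.

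Genes summing to at least 10 normalized counts over the 18 luminal libraries (15181 of 15826) were tested by limma 3.58.1 (R 4.3.3, trended and robust prior) on log2(normalized counts + 1), with 1 mean per group and a Benjamini-Hochberg adjusted p of at most 0.05. Fold changes of low genes are understated on this scale. Luminal against basal effects came from all 36 libraries. The same rat gave the luminal and the basal library of a number, per the labels, and deviations from the group means correlated across genes at 0.0594 to 0.228 in vehicle rats and 0.363 to 0.559 in TGFBRi rats. Single-cell sums with at least 10 UMIs per gene were tested by the quasi-likelihood test of edgeR 4.0.16. Alternatives were edgeR and DESeq2 1.42.0 on the recovered reads, other scalings, filters, pseudocounts and depths, and each rat left out. The setting of TGFBRi replicate 3 alone was chosen after seeing the data. The fit was tested on simulated data.

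Named genes were the 12 per direction with the largest difference among called genes with a mean of at least 50 normalized counts and no overlap between groups, plus the called members, up to 4 members of smallest p and defining members of 31 gene lists. The members and the lists were chosen with earlier results of these data known. A library is 1 rat. Some genes that the rule names are not reported here. Counts without strand cannot tell a gene from an overlapping antisense gene. The later rat labelled control in its title and treated in its description (day 7) was taken as vehicle.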

Additional observations from a re-analysis of the deposited data

Results flagged for a closer look

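The difference between the TGFBRi effect in luminal and in basal cells of the same rats passed the limma threshold for 24 genes. The luminal minus basal effect was -8.94 (log2) for UPK3A and -2.15 for CNP, which fell in luminal cells, and 3.97 for DKK3, 5.43 for SFRP2, 5.30 for OPCML, 2.88 for ZFP57 and 5.96 for CAMKV, which rose there. Over these 7 genes, the adjusted p of limma lay between 0.0051 for SFRP2 and 0.048 for CAMKV. With each of the 6 rats left out in turn, SFRP2 kept its call in 5 fits, DKK3 in 4, OPCML in 3, UPK3A in 2, and CNP, ZFP57 and CAMKV in 1 each. UPK3A lost it without TGFBRi replicate 2 or any 1 of the 3 vehicle rats, CNP without any rat but TGFBRi replicate 3, and both kept it with the rat as a replicate block. With TGFBRi replicate 3 as the only treated rat, 6 of the 7 lost their call, all but CAMKV, which lost its call with a pseudocount of 5.

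The effect at day 0 minus that at day 14 in luminal cells passed the threshold for 1 gene. SSPO, which encodes a large secreted protein known from the subcommissural organ, differed by 8.40 (log2, adjusted p = 0.018 by limma). It stood at 0.783, 0 and 0 normalized counts in vehicle rats and at 19.9, 36.8 and 20.4 in TGFBRi rats at day 0, and at 52.7, 11.4 and 27.7 against 1.54, 0.844 and 0 at day 14. The TGFBRi libraries thus lay above the vehicle libraries at day 0 and below them at day 14, and the day 14 effect alone missed the threshold (adjusted p = 0.17 by limma). SSPO kept its call by DESeq2 and in 4 of 6 fits with 1 rat left out. It lost it without TGFBRi replicate 2 or vehicle replicate 3, by edgeR, with a pseudocount of 5 and with TGFBRi replicate 3 only.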

How the results depend on the processing

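With 3 rats per group, the number of genes called at day 0 moved with the method: against 153, it was 556 by DESeq2, 3 by edgeR, 1669 with the day 0 libraries alone, 8 with a mean of at least 20, 254 with a pseudocount of 5 and 53 with TGFBRi replicate 3 as the only treated rat, and it ran from 0 to 2358 when 1 rat was left out. It was 187 with all 36 libraries, 152 with TMM scaling, 177 with no filter and 139 at equal depth. The difference between days 0 and 7 was called for 0 genes, against 64 by DESeq2, 3 with TGFBRi replicate 3 only and 0 to 136 with 1 rat left out. That between days 0 and 14 was called for 1 gene, against 52 by DESeq2, 0 by edgeR, 2 other genes with a pseudocount of 5, 9 with TGFBRi replicate 3 only and 0 to 247 with 1 rat left out. The luminal against basal difference was called for 24 genes, 171 with the rat as a replicate block and 11 with TGFBRi replicate 3 only, and for 2 to 35 with 1 rat left out. The single-cell count of 2298 ran from 420 to 2003 with 1 rat left out. The causes were not tested.

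Of the genes named, 5 changed sign, none of them called. With 1 rat left out, SMAD7 ran from -0.13 to 0.32, ESR1 from -0.077 to 0.48, PRLR from -0.078 to 0.20 and RPS6 from -1.04 to 0.025. With TGFBRi replicate 3 only, SMAD7 was at -0.065, ESR1 at -0.56 and CSN2 at -0.056. PRLR was at -0.025 by edgeR and at -0.021 with TMM scaling, and RPS6 at 0.092 at equal depth. Normalized counts below about 20 rest on few reads, most of all in TGFBRi replicates 1 and 2, the shallowest libraries.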
